A study of Mus musculus with 12 samples.

Results

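Liver gene expression was compared between mice given carbon tetrachloride (CCl4) and mice given oil, where both groups had received a lentivirus with a short hairpin RNA against the long noncoding RNA lnc-LFAR1. The groups were shLFAR1+CCl4 and shLFAR1, the latter being the oil group, with 3 arrays each, and these 6 arrays were taken by their labels from the 12 of the study. The animals were male Balb/c mice, 8 weeks old. They were injected intraperitoneally 3 times a week, at 0.3 ml/kg, with 5% CCl4 in olive oil or with oil alone. The knockdown virus was injected into the tail vein at week 2, and CCl4 or oil was then given for 4 more weeks, which makes 6 weeks in all. The study kept 10 mice in each group, and 3 of them per group were profiled. The other 6 arrays came from mice given a control virus (Lenti-NC) with oil (NC) or with CCl4 (NC+CCl4), and they appear below for values side by side and for the shared estimate of the spread. The comparison asks which genes still respond to CCl4 when lnc-LFAR1 is targeted. The virus was given to the whole animal, is not restricted to a cell type, and is present in both groups compared. The level of lnc-LFAR1 itself was not analysed here, since the annotation gives no probe set that name, and the knockdown was not checked.

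CCl4 is turned into a reactive radical by cytochrome P450 enzymes in the hepatocytes around the central vein. Those cells die, macrophages and other leukocytes clear them, and hepatic stellate cells turn into myofibroblasts that lay down collagen. In parallel the surviving hepatocytes release acute phase proteins under the control of interleukin-6 and interleukin-1, and their metallothioneins, small cysteine-rich proteins that bind zinc and copper, are induced by metals, glucocorticoids and oxidants.

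Each array measured RNA of 1 whole liver sample as log2 values, so 1 unit is a 2-fold difference. The hepatocyte transcripts Alb, Ttr and Apoa1 lay between 13.9 and 14.5 on all 6 arrays, near the top of the scale. Hba-a1 of red cells and Adipoq of fat cells lay between 2.57 and 3.56. These 2 genes were lower than their lists, with mean levels of 5.78 to 5.91 over 6 erythroid and 5.01 to 5.62 over 7 adipocyte markers. They do not show how much blood or fat the samples held. In whole liver, more cells of a type and more RNA per cell cannot be told apart. The 3 shLFAR1+CCl4 livers were unequal. On the first principal component of all 12 arrays, which held 56.3% of the variance, the shLFAR1 arrays lay between -26.5 and -20.4 and the NC+CCl4 arrays between 34.8 and 48.8. Replicates 1 and 2 of shLFAR1+CCl4 lay at -6.80 and -9.66, but replicate 3 lay at 39.2. In replicate 3 there were 720 genes more than 2-fold above the mean of the shLFAR1 arrays and 145 more than 2-fold below it. Replicate 1 had 119 above and 58 below, and replicate 2 had 125 above and 50 below. Replicate 3 also had the largest gap of the 3′ over the 5′ beta-actin probe sets among the 6 arrays, 1.07 log2 units against 0.779 to 0.932. For Gapdh its gap was 0.033 against -0.141 to 0.007. NC+CCl4 replicate 1, outside these 6, had larger gaps of 1.31 for beta-actin and 0.716 for Gapdh. The part of these gaps in the results was not tested. Because the livers were unequal, values are given array by array for the genes described most closely, with the larger results also without replicate 3. That liver was singled out after its values were seen. Calls without it describe how far a result rests on it and are no separate evidence.

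After CCl4, 59 of 18194 genes rose and 15 fell at an adjusted p under 0.05 in limma, which is 0.324% and 0.0824% of the genes tested, 0.407% together. The median log2 change over all genes was -0.03. For 1959 genes the unadjusted p was under 0.05. The count varied with the arrays in the fit. It was 34, 39 and 23 genes when shLFAR1 replicate 1, 2 or 3 was left out. It was 110 and 103 without NC+CCl4 replicate 1 or 2. A change above 2-fold was found for 48 of the 74, and above 8-fold for 8. These 8 were the metallothioneins Mt1 and Mt2, the serum amyloids Saa1, Saa2 and Saa3, the iron-chelator carrier Lcn2, the calcium-binding S100a8 and the chemokine Cxcl1. In all 74 genes the arrays of both groups did not overlap. Over all genes, 8.41% had their 3 shLFAR1+CCl4 values above all 3 shLFAR1 values and 11.7% had them below. Genes more than 2-fold above the oil mean in all 3 livers numbered 49, of which 27 were called, and 24 were more than 2-fold below it in all 3, of which 8 were called. A further 602 genes were more than 2-fold above in replicate 3 alone, and 4 of these were called.

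**Figure D1:**
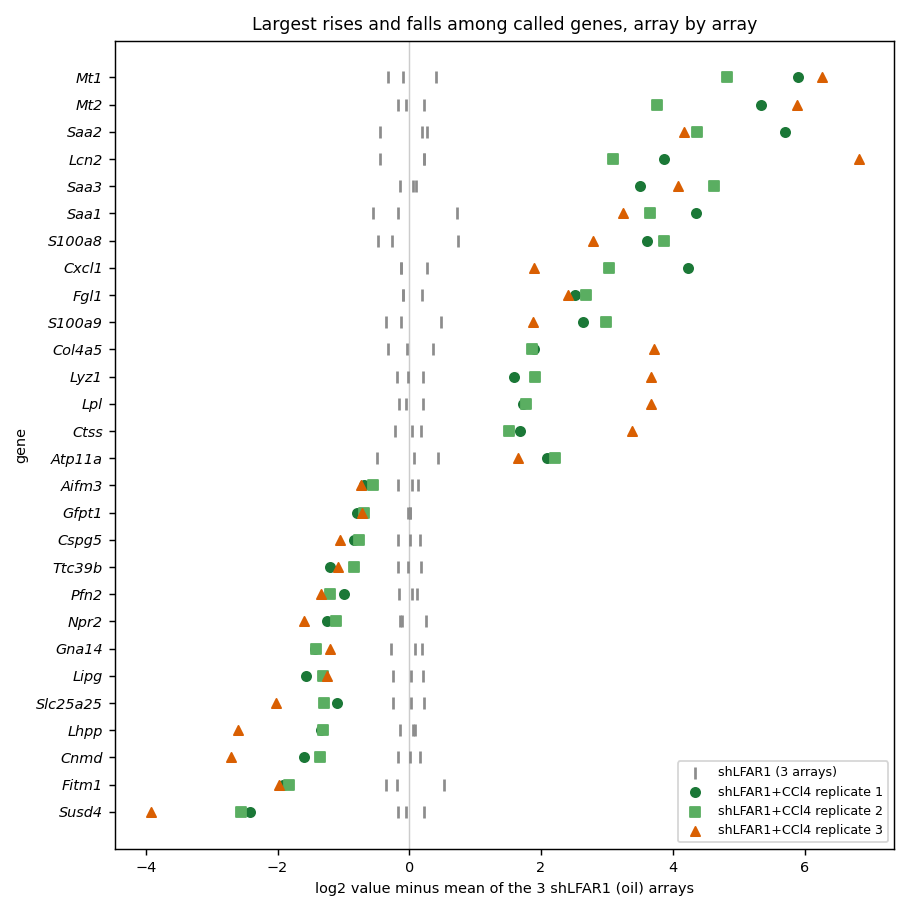
Differences from the shLFAR1 mean (log2 units, x axis) for the 15 largest rises and the 13 largest falls by the naming rule (y axis), with grey bars for the 3 shLFAR1 arrays and green circles, light green squares and orange triangles for shLFAR1+CCl4 replicates 1, 2 and 3. Mt1 reached 4.82 to 6.26 in every liver, whereas Lcn2, Col4a5, Lyz1, Lpl and Ctss were highest in replicate 3 and Cxcl1 was highest in replicate 1.

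Mt1 and Mt2 showed the largest rises. Mt1 was at 6.43, 6.93 and 6.20 in the shLFAR1 livers and at 12.4, 11.3 and 12.8 in the shLFAR1+CCl4 livers. Mt2 was at 6.13, 6.41 and 6.02 with oil and at 11.5, 9.95 and 12.1 with CCl4. Both genes were thus raised in every liver, and replicate 2 was the lowest of the 3 for each. The log2 change was 5.66 ± 0.44 for Mt1 (SE, n = 3 arrays per group, limma adjusted p = 9.7e-05), or 50.5-fold, and 5.00 ± 0.53 for Mt2 (adjusted p = 0.000896), or 32.0-fold. Without replicate 3 the changes were 5.36 and 4.55, and both stayed called. Under the control virus, Mt1 rose by 2.09 and Mt2 by 2.64. The difference between the responses was 3.56 for Mt1 (adjusted p = 0.114) and 2.36 for Mt2 (adjusted p = 0.357), so neither passed the test of the difference. For Mt1 the oil livers were unequal too, since its mean was 8.88 in NC and 6.52 in shLFAR1. The means after CCl4 were 10.98 and 12.18.

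Both genes lie side by side on chromosome 8 with no other listed gene between them. Their promoters are shown because the pair moved together and metal response elements, to which the zinc sensor Mtf1 binds, are the textbook control of metallothioneins. The 250 bases before each start site (RefSeq, GRCm38.p6) are at chr8:94178839-94179088 for Mt1 and at chr8:94172368-94172617 for Mt2, both on the plus strand, and capitals mark every match to the core TGCNCNC on either strand.
Mt1: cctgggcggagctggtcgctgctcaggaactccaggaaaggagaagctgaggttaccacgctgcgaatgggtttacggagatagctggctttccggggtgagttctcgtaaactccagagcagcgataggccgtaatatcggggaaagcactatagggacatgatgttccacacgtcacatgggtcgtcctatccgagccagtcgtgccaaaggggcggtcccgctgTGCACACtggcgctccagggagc
Mt2: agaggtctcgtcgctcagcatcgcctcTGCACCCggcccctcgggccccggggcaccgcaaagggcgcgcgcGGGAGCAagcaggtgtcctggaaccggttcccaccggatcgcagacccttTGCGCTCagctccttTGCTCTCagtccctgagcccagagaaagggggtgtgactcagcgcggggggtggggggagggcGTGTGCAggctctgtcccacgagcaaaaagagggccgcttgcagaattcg
The core matched once in the Mt1 window and at 5 places in the Mt2 window. The windows stop at the annotated start, and sequence beyond them was not searched. The counts therefore do not compare how many such elements the 2 genes have. Such a match is common, being present in 44.4% of all 32851 windows of this length, and in 58.7% of the 63 windows of genes that rose. Aligned to each other, the 2 windows were 46.3% identical.

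The acute phase list held the most called genes of any list. Of its 23 measured members 11 rose and none fell, and 18 lay above the oil range in all 3 livers without overlap. Over all genes 0.324% rose and 8.41% lay above that range. The median log2 change of the list was 0.69, against -0.03 over all genes. In replicates 1, 2 and 3 the list median was 0.65, 0.67 and 0.59. Single members were less even, among them Lcn2 and Saa2, and 21, 22 and 18 members lay above the oil range in replicates 1, 2 and 3. Without replicate 3 the list had 12 called members. Under the control virus 14 members rose and the median was 0.41.

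Saa1, Saa2 and Saa3, apolipoproteins that the liver releases in inflammation, were with Lcn2 the members of the list with the largest changes. Saa3 was at 6.55, 6.60 and 6.36 with oil and at 10.0, 11.1 and 10.6 with CCl4, a log2 change of 4.07 ± 0.25 (adjusted p = 1.39e-05). Saa2 was at 7.04, 6.96 and 6.32 with oil and at 12.5, 11.1 and 10.9 with CCl4 (4.74 ± 0.69, adjusted p = 0.00904). Saa1 was at 9.66, 8.77 and 8.38 and then at 13.3, 12.6 and 12.2 (3.75 ± 0.54, adjusted p = 0.00904). For Saa1 and Saa2 replicate 1 was the highest and replicate 3 the lowest of the CCl4 livers. Without replicate 3 the changes were 4.07 for Saa3, 5.03 for Saa2 and 4.00 for Saa1, and all 3 genes stayed called. Under the control virus the changes were 4.37 for Saa3, 4.45 for Saa2 and 3.54 for Saa1. The differences between the responses were -0.30, 0.30 and 0.21, with standard errors of 0.35, 0.98 and 0.77 (adjusted p of 0.845 or above).

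Saa1 and Saa2 are near copies that lie side by side on chromosome 7, and their probe sets may read each other's transcript. Their promoters are shown because the copies rose together. The 250 bases before the start of Saa1 are at chr7:46742981-46743230 on the minus strand and those of Saa2 at chr7:46751583-46751832 on the plus strand (RefSeq, GRCm38.p6). Capitals mark matches to TTGCNNAA on either strand, a site of the C/EBP factors that control acute phase genes.
Saa1: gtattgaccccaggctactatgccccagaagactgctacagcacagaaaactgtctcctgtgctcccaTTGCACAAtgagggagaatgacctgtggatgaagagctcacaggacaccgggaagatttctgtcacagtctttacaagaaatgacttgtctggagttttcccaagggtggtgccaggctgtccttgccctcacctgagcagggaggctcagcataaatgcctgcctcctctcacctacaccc
Saa2: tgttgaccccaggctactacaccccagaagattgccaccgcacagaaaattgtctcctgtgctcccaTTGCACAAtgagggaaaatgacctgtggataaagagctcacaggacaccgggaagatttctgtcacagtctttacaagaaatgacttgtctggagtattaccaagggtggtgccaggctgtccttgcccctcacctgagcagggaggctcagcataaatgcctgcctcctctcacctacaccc
The windows were 94.8% identical, and each held 1 match at the same place in the shared sequence. TTGCNNAA was present in 9.56% of all windows of this length, in 25.4% of the windows of genes that rose and in 6 of the 9 windows of called acute phase genes. The STAT motif TTCNNNGAA was present in 7.02% of all windows, in 6.35% of those of genes that rose and in 2 of the 9 windows of called acute phase genes. Only 46 of the 59 genes that rose, and 9 of the 11 called acute phase genes, had a window. The 9 windows are part of the 63 of genes that rose, and the near-identical Saa1 and Saa2 windows count separately. These shares are therefore not independent, and control by either factor was not tested.

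The other acute phase genes that rose, apart from Lcn2, had smaller changes. Haptoglobin (Hp), which binds free hemoglobin, went from 13.2, 13.3 and 13.2 to 13.7, 13.7 and 13.8 (0.50 ± 0.07, adjusted p = 0.00487). The heavy chain genes Itih3 and Itih4, which neighbour each other in the genome, rose by 0.75 ± 0.09 and 0.55 ± 0.06. Their 3 livers differed little, from 0.65 to 0.84 for Itih3 and from 0.47 to 0.65 for Itih4. Lbp, which presents bacterial lipopolysaccharide to its receptor, was at 9.78, 9.84 and 9.87 with oil and at 11.1, 11.1 and 10.5 with CCl4 (1.07 ± 0.16, adjusted p = 0.0126). Steap4, a metalloreductase, was at 9.23, 9.29 and 9.36 and then at 10.9, 11.3 and 10.3 (1.54 ± 0.22, adjusted p = 0.00787). Replicate 3 was the lowest CCl4 liver for Lbp and Steap4, and it still lay above the oil livers. Orm3 rose by 1.16 and the protease inhibitor Serpina3n by 0.44. Orm1 and Orm2 had log2 changes of 0.73 (adjusted p = 0.0576) and 2.63 (adjusted p = 0.0754). Hepcidin (Hamp) was the only member whose CCl4 values all lay below the oil values, with a log2 change of -0.49 (adjusted p = 0.157).

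Some signalling genes also rose, picked from the called genes after their values were seen. Stat3, the transcription factor downstream of interleukin-6, was at 8.80, 8.73 and 8.72 with oil and at 9.56, 9.84 and 9.38 with CCl4 (0.84 ± 0.14, adjusted p = 0.0218). Nfkbiz, a nuclear cofactor of NF-κB, rose by 1.17 ± 0.17, and Tifa, an adaptor upstream of NF-κB, rose by 1.66 ± 0.26 (adjusted p = 0.0128). The kinase Map3k1 rose by 0.96 ± 0.13, and 1 of its 2 probe sets had the opposite sign. The feedback inhibitor Socs3 was at 6.17, 6.33 and 6.08 with oil and at 7.42, 7.82 and 6.45 with CCl4. It was not called with all arrays (adjusted p = 0.126) and was called without replicate 3, where its log2 change was 1.43 (adjusted p = 0.00101). Lrg1, a secreted glycoprotein of the acute phase, rose by 0.90 ± 0.15.

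The alarmins S100a8 and S100a9, subunits of calprotectin encoded side by side, rose in all livers. S100a8 was at 2.90, 4.11 and 3.11 with oil and at 6.98, 7.24 and 6.16 with CCl4 (3.42 ± 0.34, adjusted p = 0.000643). S100a9 was at 4.72, 5.32 and 4.48 and then at 7.48, 7.82 and 6.71 (2.50 ± 0.35, adjusted p = 0.00734). Replicate 3 was the lowest CCl4 liver for both, the reverse of its place for Lcn2. Lcn2 was at 5.62, 5.61 and 4.95 with oil and at 9.26, 8.48 and 12.2 with CCl4 (4.59 ± 0.72, adjusted p = 0.0145), and its change without replicate 3 was 3.48. These 3 were the called ones among 11 measured neutrophil markers, and Lcn2 is on the acute phase list as well. Above the oil range in all 3 livers lay 4 of the 11 markers, and 0 lay below it. Over all genes 0.324% rose and 8.41% lay above that range. The granule genes Elane, Mpo, Camp, Ltf, Ngp and Mmp8 lay between 3.78 and 5.17 on all 6 arrays, below the array medians of 5.52 to 5.64, and none was called. The mean level of the list was 4.41 to 4.64 in the shLFAR1 livers and 5.43 to 5.55 in the shLFAR1+CCl4 livers.

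Cxcl1, a chemokine that attracts neutrophils, was the 1 called gene among 27 chemokines and cytokines. It was at 8.02, 7.62 and 7.63 with oil and at 12.0, 10.8 and 9.65 with CCl4 (3.05 ± 0.47, adjusted p = 0.0133), or 8.28-fold. The CCl4 livers spanned more than 2 units and all lay above the oil livers, and without replicate 3 the change was 3.63 (adjusted p = 0.00105). Under the control virus its log2 change was 0.54 ± 0.47 (adjusted p = 0.507), with 6.72, 7.30 and 8.29 in NC and 7.94, 7.94 and 8.05 in NC+CCl4. The difference between the responses, 2.51 ± 0.67, did not pass (adjusted p = 0.307). Of the 27 genes of the list, 6 lay above the oil range in all 3 livers and 1 below it. Over all genes 0.324% rose, 8.41% lay above the oil range and 11.7% below.

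**Figure D2:**
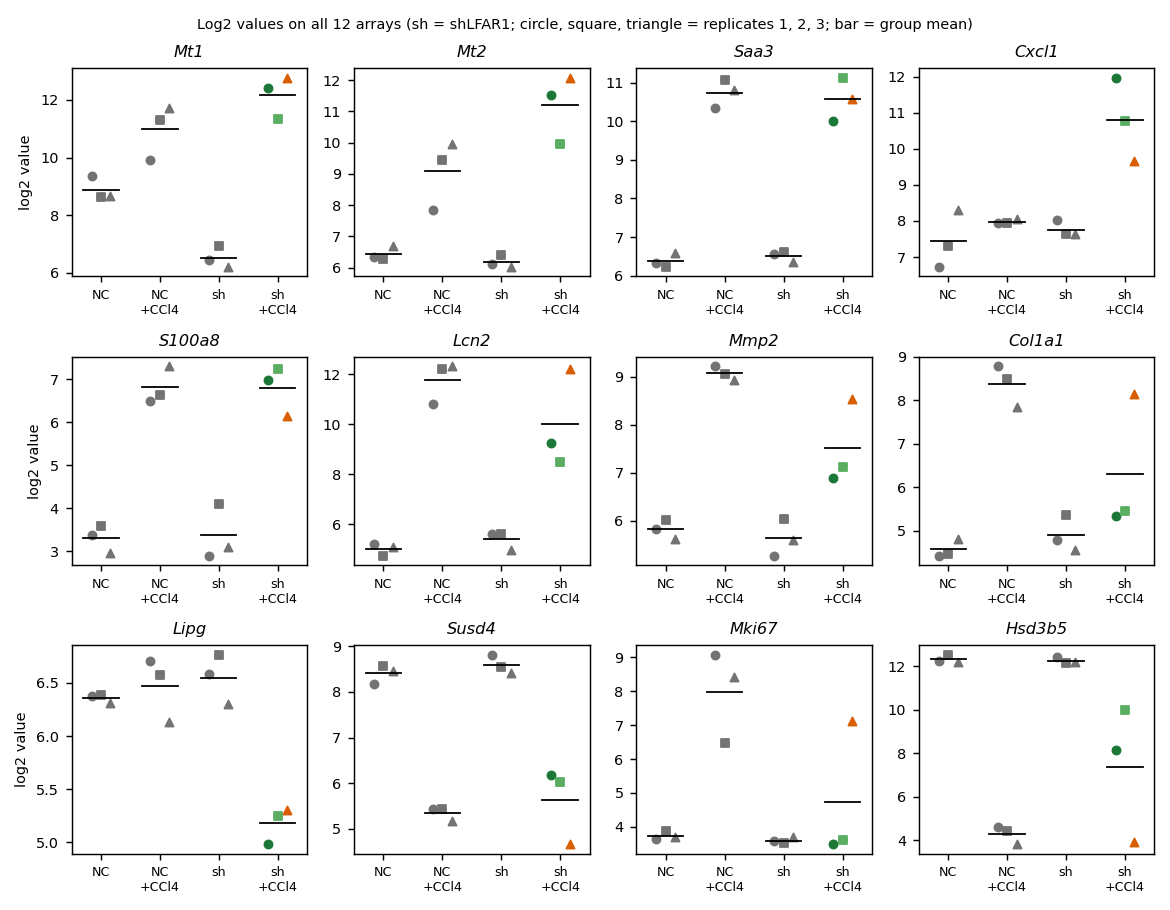
Log2 values (y axes, each on its own range) of 12 genes on all 12 arrays in the 4 groups (x axes; sh stands for shLFAR1), with circles, squares and triangles for replicates 1, 2 and 3, colours for the shLFAR1+CCl4 livers and a bar at each group mean. Mt1, Saa3, Cxcl1 and S100a8 were raised in all 3 shLFAR1+CCl4 livers, Lipg was lower in that group alone, and for Col1a1, Mki67 and Hsd3b5 replicate 3 lay with the NC+CCl4 livers.

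The livers were uneven for matrix genes. Of 20 measured collagens 2 rose, Col4a5 of basement membranes and Col6a1 of the microfibrils around cells, and none fell. Over all genes 0.324% rose. Col4a5 was at 3.34, 3.63 and 4.03 with oil and at 5.55, 5.53 and 7.38 with CCl4 (2.49 ± 0.45, adjusted p = 0.0333). Col6a1 was at 5.18, 5.85 and 5.49 and then at 6.50, 6.67 and 7.72 (1.46 ± 0.27, adjusted p = 0.0333). In both, replicate 3 stood above the other livers, yet both were also called without it. The collagen medians were 0.25, 0.22 and 1.44 in replicates 1, 2 and 3, and 12 collagens rose under the control virus with a median of 1.62.

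The fibrillar collagens did not pass the test. Col1a1, the main chain of scar collagen, was at 4.78, 5.36 and 4.56 with oil and at 5.34, 5.46 and 8.14 with CCl4. Its log2 change was 1.41 ± 0.57 (adjusted p = 0.390), and replicate 1 lay within the oil range. Col1a2 was at 7.29, 7.99 and 7.64 and then at 8.71, 9.31 and 10.7. Its change of 1.93 ± 0.37 missed the threshold (adjusted p = 0.0504), and without replicate 3 it was 1.37 (adjusted p = 0.0190). Col3a1 changed by 1.87 ± 0.41 (adjusted p = 0.0826, and the same value without replicate 3).

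Among other matrix genes, Dpt, a small protein that binds decorin and collagen, was the 1 called of 27 matrix glycoproteins and proteoglycans. It was at 5.54, 5.60 and 5.77 with oil and at 6.84, 7.26 and 7.77 with CCl4 (1.65 ± 0.22, adjusted p = 0.00487). Mmp2, the gelatinase, was the 1 called of 28 genes for crosslinking and turnover. It was at 5.28, 6.04 and 5.60 and then at 6.90, 7.13 and 8.54 (1.88 ± 0.34, adjusted p = 0.0312). Of 20 markers of stellate cells and myofibroblasts only the receptor Pdgfra was called (1.19 ± 0.21, adjusted p = 0.0310), and it was not called without replicate 3 (adjusted p = 0.0678). Of its 3 probe sets, 1 had the opposite sign. In these 3 lists 10 of 27, 11 of 28 and 5 of 20 genes lay above the oil range in all 3 livers. Below it lay 2, 1 and 2 genes. Over all genes 0.324% rose, 8.41% lay above the oil range and 11.7% below. Acta2, the smooth muscle actin of myofibroblasts, was at 5.81, 6.42 and 6.24 with oil and at 6.21, 6.75 and 7.22 with CCl4 (0.57 ± 0.26, adjusted p = 0.467). Outside these lists the fibroblast genes Ccdc80 (1.98 ± 0.33), Itga8 (1.64 ± 0.27) and Cdh11 (1.63 ± 0.31) rose. Itga8 and Cdh11 were not called without replicate 3. With the mean over probe sets Cdh11 changed by 0.86 and was not called. Beside these values stand 8 markers of the mesothelium that covers the liver, whose medians were 0.06, 1.11 and 0.75 in the CCl4 livers and -0.30, 0.30 and 0.00 in the oil livers. None of the 8 was called, and their part in the matrix values was not tested.

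Of 22 macrophage and monocyte markers, Ctss alone was called, although 19 lay above the oil range in all 3 livers (8.41% of all genes did). Ctss, the cathepsin that trims the invariant chain, was at 7.83, 8.22 and 8.09 with oil and at 9.72, 9.57 and 11.4 with CCl4 (2.19 ± 0.40, adjusted p = 0.0312). The median of the list was 1.02, and by liver it was 0.58, 0.56 and 1.93. Its mean level was 5.96 to 6.15 with oil and 6.79 to 8.46 with CCl4. Gpnmb and Lgals3, typical of macrophages that scavenge lipid and debris, had large changes with large errors. Gpnmb was at 6.16, 6.23 and 10.6 after CCl4 against 4.43 to 4.63 with oil (3.12 ± 0.87, adjusted p = 0.183), and Lgals3 was at 7.31, 7.24 and 11.3 against 4.96 to 5.77 (3.24 ± 0.82, adjusted p = 0.131). Without replicate 3, which was singled out after its values were seen, the spread was smaller and 4 markers were called. These were Ctss, Gpnmb (1.64, adjusted p = 0.0160), Lgals3 (1.91, adjusted p = 0.0386) and lysozyme Lyz2 (1.65, adjusted p = 0.0285). The related lysozyme Lyz1 rose by 2.39 ± 0.41 (adjusted p = 0.0235), and its probe set may also read Lyz2. Kupffer cell identity genes had no call among 13 and a median of 0.16.

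Of 16 measured antigen presentation genes, 3 rose and 12 lay above the oil range in all 3 livers. Over all genes 0.324% rose and 8.41% lay above that range. The medians of the list by liver were 0.55, 0.31 and 0.68. H2-Ab1, a class II chain, was at 6.16, 6.75 and 6.49 with oil and at 8.30, 7.63 and 8.20 with CCl4 (1.58 ± 0.23, adjusted p = 0.00904). Its rise was 3.07 under the control virus, and the difference of -1.49 was not called (adjusted p = 0.212). The class I heavy chains H2-K1 and H2-D1, near copies at 11.5 to 11.8 with oil, rose by 0.46 and 0.42. The class II chain H2-Aa (1.33, adjusted p = 0.0504) and the invariant chain Cd74 (1.04, adjusted p = 0.0514) were just outside the threshold. Among 25 interferon targets none was called, and 15 lay above the oil range in all livers, with a median of 0.46.

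Several further genes rose by nearly the same amount in each liver. Fgl1, a hepatocyte protein that binds the immune receptor LAG-3, was at 9.90, 9.90 and 10.2 with oil and at 12.5, 12.7 and 12.4 with CCl4 (2.53 ± 0.24, adjusted p = 0.000585). Slc3a1, a subunit of the cystine transporter, was at 8.17, 8.32 and 8.24 and then at 9.70, 9.51 and 9.69 (1.39 ± 0.10, adjusted p = 4.71e-05). Prg4, the lubricant proteoglycan lubricin, was at 8.77, 8.24 and 8.63 and then at 9.87, 9.93 and 9.80 (1.32 ± 0.12, adjusted p = 0.000585). For these 3 genes the range among the CCl4 livers was 0.106, 0.138 and 0.097 of the change. The estrogen receptor Esr1 rose by 0.80 ± 0.11 and the ubiquitin-conjugating enzyme Ube2l6 by 0.81 ± 0.15. Of the 3 probe sets of Esr1, 1 had the opposite sign. The phospholipid flippase Atp11a rose by 1.98 ± 0.22, or by 1.00 with the mean over its 2 probe sets. The neighbours Tmem176a and Tmem176b rose by 0.89 ± 0.09 and 0.83 ± 0.09. Lipoprotein lipase (Lpl), on the adipocyte list, rose unevenly, from 7.59, 7.85 and 7.49 to 9.37, 9.41 and 11.3 (2.39 ± 0.39, adjusted p = 0.0192). Gpx3, a secreted glutathione peroxidase, rose the most unevenly of the called genes, from 6.22, 6.39 and 6.48 to 7.15, 7.48 and 8.48. Over the 74 genes, the largest difference from oil was in replicate 3 for 41, in replicate 1 for 20 and in replicate 2 for 13.

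The 15 genes that fell were led by Susd4, a membrane inhibitor of complement that is higher in male than in female liver. Susd4 was at 8.81, 8.54 and 8.42 with oil and at 6.18, 6.04 and 4.67 with CCl4 (-2.96 ± 0.31, adjusted p = 0.000776), or 7.80-fold lower. Fitm1, which helps form lipid droplets, was at 8.24, 8.07 and 8.95 and then at 6.50, 6.60 and 6.45 (-1.91 ± 0.19, adjusted p = 0.000585). Its CCl4 livers lay within 0.15 units of each other, and relative to the change, at 0.08 of it, this range was the smallest among the called genes. Both had nearly the same change under the control virus, -3.06 for Susd4 and -1.96 for Fitm1.

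Lipg, endothelial lipase, stood out by its value under the control virus. It was at 6.58, 6.76 and 6.30 with oil and at 4.98, 5.25 and 5.30 with CCl4 (-1.37 ± 0.16, adjusted p = 0.00254). Under the control virus it was at 6.38, 6.39 and 6.31 with oil and at 6.71, 6.57 and 6.13 with CCl4, a log2 change of 0.11 (adjusted p = 0.715). The difference between the responses was -1.48 ± 0.23 and did not pass (adjusted p = 0.0716).

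The chondromodulin gene Cnmd fell by 1.88 and the phosphatase Lhpp by 1.75, both with replicate 3 lowest. The mitochondrial carrier Slc25a25, which has 1 gene between it and Lcn2, fell by 1.47 while Lcn2 rose. The G protein subunit Gna14 fell by 1.35 and the natriuretic peptide receptor Npr2 by 1.32, with Pfn2, Ttc39b, Cspg5 and Ttc7b between 0.88 and 1.18 lower. Gfpt1, the first enzyme of the hexosamine pathway, fell by 0.74, from 8.12, 8.08 and 8.12 to 7.31, 7.42 and 7.39, and its change under the control virus was -0.09 (adjusted p = 0.733). Aifm3 and the nucleoside transporter Slc29a2 fell by 0.66 and 0.64. Without replicate 3, 11 of the 15 falls and 48 of the 59 rises were still called, and the adjusted p of the 15 genes lost was 0.0554 to 0.104. That fit called 84 genes in all, 25 of them not called with replicate 3.

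Some gene groups lay apart in replicate 3 alone, and none of their members passed the test. Of 47 cell cycle genes none was called. The medians were -0.11, -0.02 and 1.15 in replicates 1, 2 and 3, and 42 of 47 genes lay above the oil range in replicate 3 against 10 and 4 in the others. Mki67, the proliferation antigen, was at 3.58, 3.52 and 3.68 with oil and at 3.48, 3.60 and 7.11 with CCl4. Afp, the fetal serum protein, was at 3.08 to 3.28 with oil and at 3.17, 3.59 and 10.5 with CCl4. Under the control virus 30 of the 47 cell cycle genes rose, with a median of 2.00. Outside the list, the cell cycle inhibitor Cdkn2c rose in all 3 livers, by 1.67, 1.14 and 2.18. Its change was 1.66 ± 0.22 (limma adjusted p = 0.00561), against 2.45 under the control virus. It stayed called without replicate 3 (adjusted p = 0.00492).

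Male-biased liver genes differed widely between the 3 livers. Of 14 measured, Susd4 alone was called as lower (0.0824% of all genes were), and 9 lay below the oil range in every liver (11.7% of all genes did). The medians were -0.86, -0.25 and -4.02. Hsd3b5, a steroid dehydrogenase, was at 12.4, 12.2 and 12.2 with oil and at 8.15, 10.0 and 3.93 with CCl4 (-4.89 ± 1.03, adjusted p = 0.0700). Without replicate 3 its change was -3.18 (adjusted p = 0.00261). Slco1a1, an uptake carrier for organic anions, was at 11.2 to 11.3 with oil and at 9.82, 10.3 and 4.76 with CCl4 (-2.98 ± 1.01, adjusted p = 0.283), and it was called without replicate 3 (-1.22, adjusted p = 0.00643). The oxysterol hydroxylase Cyp7b1 was at 12.52 to 12.86 and then at 11.03, 11.55 and 7.64 (adjusted p = 0.222). The 13 female-biased genes had no call, with medians of 0.00, -0.18 and 1.15.

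**Figure D3:**
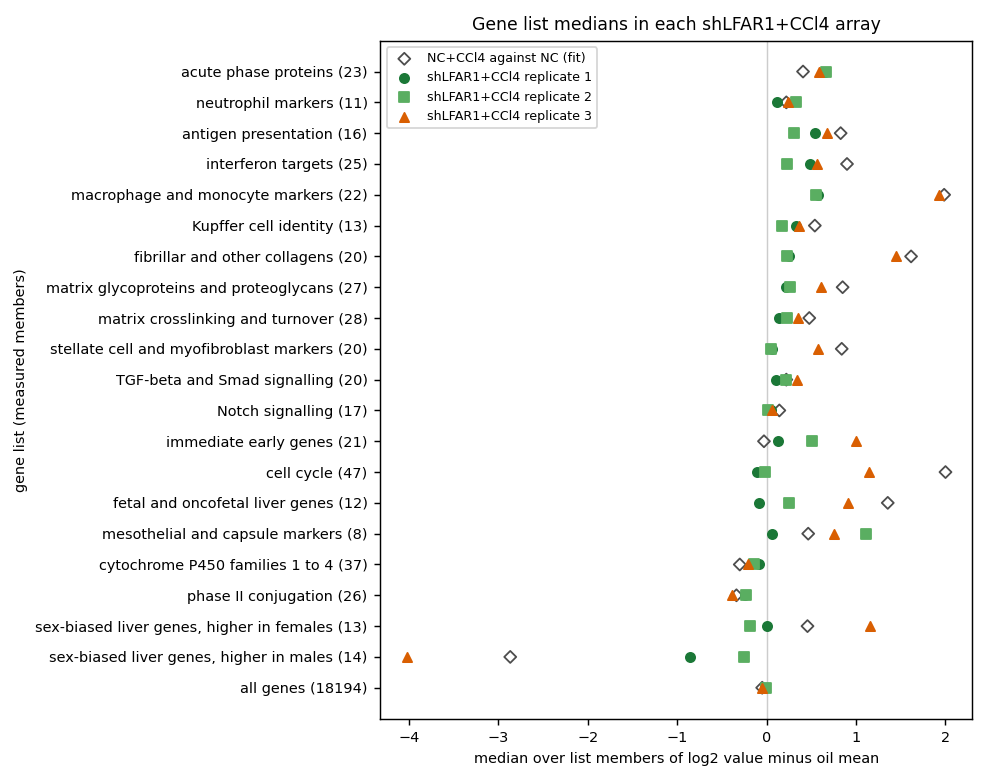
Median difference from the shLFAR1 mean (log2 units, x axis) over the measured members of 20 gene lists and over all genes (y axis, number of members in brackets) for shLFAR1+CCl4 replicates 1, 2 and 3, with open diamonds for the median log2 change of NC+CCl4 against NC. The acute phase medians of the 3 livers lie together at 0.59 to 0.67, whereas replicate 3 is apart at 1.15 for the cell cycle, 1.44 for collagens and -4.02 for male-biased genes.

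Few detoxification genes passed the test. Of 37 cytochrome P450 genes 1 rose, Cyp3a13 (0.324% of all genes did). Cyp3a13 was at 7.94, 8.11 and 8.09 with oil and at 8.83, 8.86 and 9.06 with CCl4 (0.87 ± 0.15, adjusted p = 0.0210). None fell, 10 lay below the oil range in all livers (11.7% of all genes did), and the median was -0.17. Without replicate 3, Cyp1a2 was called as lower by 0.50 (adjusted p = 0.00923) and Cyp3a13 was not called. Of 26 conjugating enzymes none was called and 14 lay below the oil range in all 3 livers, with a median of -0.26. Of 17 targets of the antioxidant factor Nrf2, Mt1 and Mt2 alone were called, and the median was -0.06. Of 21 immediate early genes none was called. Their medians were 0.13, 0.51 and 1.01, and Egr1 was at 6.44, 7.39 and 8.59 among the oil livers themselves.

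Panels drawn from genes that the study measured by PCR were read from the same fit. They were chosen by the study and are no independent evidence of a direction. Of 9 fibrogenic genes 1 rose, Mmp2 (0.324% of all genes did). The median was 1.24, and by liver it was 0.35, 0.60 and 2.08. Timp1, an inhibitor of matrix proteases, changed by 1.24 ± 0.37 (adjusted p = 0.207), Tgfb1 by 0.16 (adjusted p = 0.815), Ccn2 by 0.08 and Mmp9 by -0.18. Of 4 measured genes for inflammation and apoptosis none was called, with 0.30 for Tnf, 0.09 for Il1b, 0.25 for Ccl2 and -0.02 for Bad. Of 8 genes of the TGFβ and Notch pathways none was called. Tgfbr1 changed by 0.40 (adjusted p = 0.339). Smad2 and Smad3 lay at 0.10 and -0.01, Notch2 at 0.32, Notch3 at 0.07, Hes1 at -0.24, Hey2 at 0.03 and Jag1 at -0.06. In the wider lists, 0 of 20 TGFβ and Smad genes and 0 of 17 Notch genes were called, with medians of 0.19 and 0.06. The TGFβ receptor Tgfbr2, in the first of these lists, changed by 1.07 ± 0.34 (adjusted p = 0.246), with 7.01, 7.04 and 8.72 after CCl4 against 6.38 to 6.66, and Smad4 and Smad7 changed by 0.01 and 0.01. At an unadjusted p of 0.05 in limma, Col1a1, Col1a2, Col3a1, Mmp2, Timp1 and Tgfbr1 passed from these panels. Of all 18194 genes, 1959 did. Without replicate 3 the change of Col1a1 was 0.50 (limma adjusted p = 0.759).

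The CCl4 response under the control virus compared other arrays, but both comparisons used 1 spread estimated from all 12 arrays, so their calls are not independent. There, 2375 genes were called, 13.1% of those tested (1262 and 1322 with NC replicate 1 or 2 left out), and 66 of the 74 genes were among them, all in the same direction. This is 89.2% of the 74 and 2.78% of the 2375. The other 8 were Cxcl1, Lipg, Lbp, Tifa, Serpina3n, Sema4a, Tacc2 and Gfpt1. The change was larger than under the control virus for 37 of the 74. Of the 2375 genes, 2103 had the same sign here. The share of all genes with the same sign was not taken. The sign is also that of a mean that includes replicate 3, the liver nearest to the NC+CCl4 group. This count is therefore no measure of how alike the responses were. None of the 74 passed the test of the difference between the responses, for which 22 had an unadjusted p under 0.05.

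**Figure D4:**
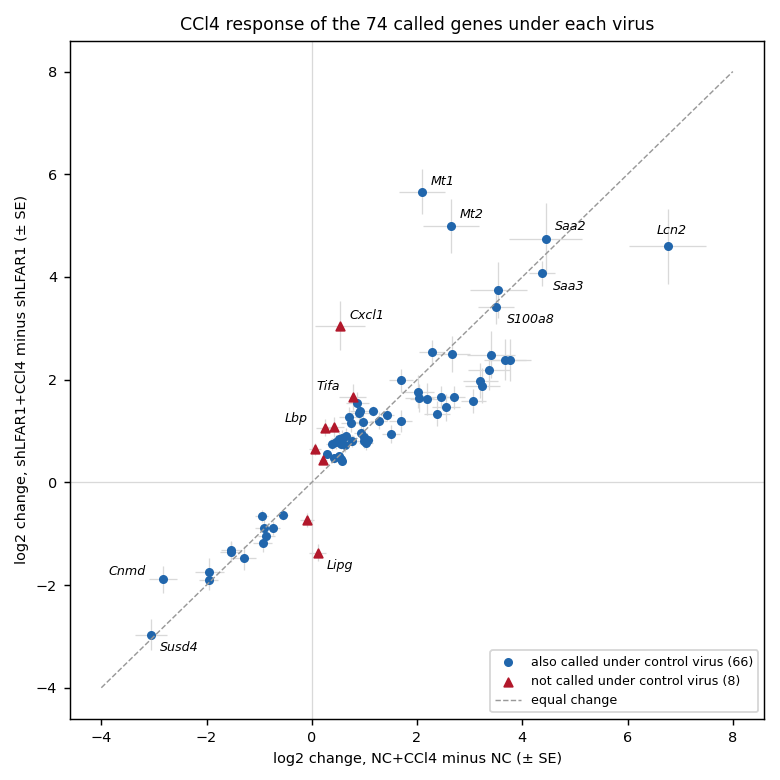
Log2 change with its SE under the knockdown virus (y axis) against that under the control virus (x axis) for the 74 called genes, with blue circles for the 66 also called under the control virus, red triangles for the 8 that were not, and a dashed line at equal change. Mt1, Mt2 and Cxcl1 lie above the line, Lcn2 lies below it with 4.59 against 6.76, and Lipg has a change of -1.37 against 0.11.

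The test of the difference called 4 of 18194 genes, 0.022%, and none of them was called for CCl4 against oil under the knockdown virus. Nlrp12, an inhibitor of inflammatory signalling, fell by 3.34 under the control virus and was at 8.26, 8.17 and 8.30 with oil and at 8.09, 8.03 and 6.88 with CCl4 under the knockdown virus. Its difference of 2.76 ± 0.34 had an adjusted p of 0.0174. The phosphodiesterase Gpcpd1 fell by 1.73 under the control virus against a change of -0.01 here, although 3 of its other probe sets had the opposite sign here. The ubiquitin ligase component Fbxo31 fell by 1.24 against a change of 0.27, and the carboxylesterase Ces2a fell by 1.19 against -0.15. Their differences were 1.72, 1.51 and 1.03 (adjusted p = 0.0174, 0.0174 and 0.0394). This count depended on single livers. Without shLFAR1+CCl4 replicate 3, the liver nearest to the NC+CCl4 group, limma called 581 genes. These held the 4 above and 17 of the 74, and in 578 of them the response under the knockdown virus was smaller than that under the control virus or opposite to it. The exceptions were Mt1 (difference 3.26, adjusted p = 0.0160), Cxcl1 (3.08, adjusted p = 0.00870) and Lbp (1.00, adjusted p = 0.0172), which rose more. Smaller and opposite responses among the 578 were not counted apart. Lipg also passed in that fit (-1.55, adjusted p = 0.00690), with an opposite response of -1.44 against 0.11. So did Lpl, Mmp2, Lcn2, Ccdc80 and H2-Ab1, which rose less. Since that liver was singled out after its values were seen, these counts describe how far the result rests on it. Without NC+CCl4 replicate 2 limma called 164. It called none when NC replicate 1 or 2, shLFAR1 replicate 2 or shLFAR1+CCl4 replicate 1 or 2 was left out, where 1126 to 1507 genes had an unadjusted p under 0.05. Without NC+CCl4 replicate 1, shLFAR1 replicate 1 or shLFAR1 replicate 3 it called 1, 1 and 2.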

How the data were processed

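RNA of 12 mouse liver samples, 3 biological replicates in each of 4 groups, was measured on Affymetrix mouse genome-wide 3′ expression arrays. The authors deposited log2 values for 45101 probe sets, and the summarization and normalization behind these values are not given in the sources used here. They were used as deposited. There were no detection calls, so low values may be background. Probe sets were named from the platform annotation: 34958 had 1 gene symbol, 932 had several and 9211 had none, and 64 of all these were controls, which were left out unless they had 1 gene symbol. Where several probe sets read a gene, that with the largest mean of the 12 arrays was kept, which left 18194 genes, and 18033 genes were matched to RefSeq.

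A model with 4 group means and no intercept was fitted to all 12 arrays in limma 3.58.1 (R 4.3.3), with eBayes and an intensity trend and 8 residual degrees of freedom. The groups shared 1 estimate of the spread, although the median SD over genes was 0.106 in shLFAR1 and 0.143 in shLFAR1+CCl4. Tests were two-sided, and adjustment followed Benjamini and Hochberg across the 18194 genes, with an adjusted p under 0.05 for a call. The p-values measure the spread between these liver samples, and the number of arrays limits the precision. Differences of single arrays were taken from the mean of the shLFAR1 arrays, and the median of a list is over its measured members. Tables and plots were made in Python 3.11.15 (pandas 2.3.3, matplotlib 3.10.9), and promoter windows came from RefSeq on GRCm38.p6.

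The gene lists (51 lists, 869 of 950 genes measured) and the genes described were chosen with earlier results of these data known. Genes were named by rank: the 15 largest rises and falls among called genes without overlap where the higher of both group means exceeded the median gene (so that a gene could pass through the group where it was high), up to 4 called members and the most abundant member of each list, the genes followed in the study, the genes called for the difference between the responses, and the most and least even responses. The other genes named were chosen after their values were seen. Alternatives covered the arrays in the fit, the variance model, array weights, normalization, a filter on low values, the choice of probe set, the replicate number as a block, each array left out, a fold threshold of 1.6, and the methods' t-test. In simulated data for 18194 genes, the model called 85 of 100 genes changed by 1 log2 unit and 99 of 100 changed by 2, with 12 false calls. The simulation gave each gene the same spread in all groups and set no liver apart. It does not describe recovery where 1 liver is unequal, as in shLFAR1+CCl4.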

Additional observations from a re-analysis of the deposited data

Results flagged for a closer look

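The response to CCl4 under the knockdown virus minus that under the control virus passed the test of the difference for 4 genes, with values of 2.763 for Nlrp12, 1.724 for Gpcpd1, 1.508 for Fbxo31 and 1.034 for Ces2a on the log2 scale. All 4 fell under the control virus and were not called under the knockdown virus.

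Of 10092 probe sets that carried no gene symbol or several, and that entered none of the comparisons above, 11 were called for CCl4 against oil under the knockdown virus in limma, 3 higher and 8 lower.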

How the results depend on the processing

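The 74 calls became 375 with array weights, 63.7% of them higher, and 240 by the methods' t-test without adjustment at a fold above 1.6. After Benjamini-Hochberg adjustment that test called 0 genes, with 1910 at an unadjusted p under 0.05. The count was 23 to 110 when 1 array was left out, lowest without shLFAR1 replicate 3 and highest without NC+CCl4 replicate 1. It lay within 1.5 times of 74 under the other alternatives, for example 54 with the 6 arrays alone (39 of the 74) and 61 with the mean over probe sets (53 of the 74). The difference between the responses had 393 calls with array weights, 7 with quantile normalization, 10 with the filter on low values, 2 with the mean over probe sets, and 0 to 581 when 1 array was left out. The control virus response had 1356 calls with a fold above 1.6 and 1262 to 2923 when 1 array was left out. The cause of these shifts was not tested.

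No called gene changed sign under any alternative. Of the uncalled genes with printed values, Ccn2 was at -0.087 with array weights, Gpcpd1 at 0.008 with quantile normalization and 0.365 with the mean over probe sets, and Smad7 at -0.027 with quantile normalization. With 1 array left out the sign also changed for Bad (-0.12 to 0.07), Ccn2 (-0.392 to 0.525), Gpcpd1 (-0.184 to 0.166), Jag1 (-0.124 to 0.032), Mki67 (-0.048 to 1.764), Smad2 (-0.012 to 0.218), Smad3 (-0.072 to 0.061), Smad4 (-0.044 to 0.077), Smad7 (-0.071 to 0.121) and Tgfb1 (-0.015 to 0.261).

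Same-numbered oil and CCl4 arrays correlated at 0.0871, -0.0147 and 0.0345 in their deviations from the group means, against -0.0784 to 0.0435 for other numbers, so the numbers were not taken to pair the livers. With the replicate number as a block, 97 genes were called, 69 of them among the 74, with 4 calls for the difference between the responses and 2440 for the control virus.

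With 3 livers a group, changes near 1 log2 unit may be missed. Larger ones may be missed too where the livers were uneven, as for Gpnmb with a change of 3.12. Low values without detection calls may be background, and 5 of the 39 called genes with several probe sets had 1 or more of the opposite sign, none of these called.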
